A study of Caenorhabditis elegans with 6 samples.

Results

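The genes described here are the protein-coding genes of the X chromosome of the nematode Caenorhabditis elegans. They were taken as the genes of the deposited transcript table whose transcripts lie on X, joined by gene ID to the protein-coding entries of the gene table. This gave 2777 of 20090 protein-coding genes (13.8%) out of 46769 genes of all kinds in the table, and the 17313 protein-coding genes of the 5 autosomes served as the comparison. Position alone decided which genes belong, and no measured value entered that rule, though the genes were chosen for description with earlier results of these data known.

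Hermaphrodites of this species carry a pair of X chromosomes and males a single one. In the body cells of hermaphrodites a condensin-like dosage compensation complex binds both X chromosomes and lowers their transcription towards that of the single X of males. In the germline most X-linked genes are kept silent for long periods by chromatin regulators such as the MES proteins and MRG-1, and genes for sperm are scarce on X. Many genes of X act in muscle, neurons and intestine, and yolk proteins are encoded there as well. The libraries came from whole animals. In such bulk samples fewer cells of a type and less RNA per cell cannot be told apart.

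Messenger RNA was sequenced from 3 samples of the wild-type strain N2 and 3 samples of the mutant plp-1(ok2155), which the labels call biological replicates. All were hermaphrodites of mixed stage (embryos, larvae and adults together), kept at 20 °C on OP50, the usual bacterial food, on full but not starved plates. The gene plp-1 encodes a Pur-alpha-like nucleic acid binding protein and lies on chromosome IV. Adjusted p-values judge the difference of the groups against the spread between these samples, with an adjustment over all tested genes. The stages present in each culture were not counted in the sources used here.

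Total counts lay between 39331848 and 53486099 per library. The transcript of plp-1 stood at 293 to 430 CPM (counts scaled to a common library size) in the wild-type libraries and at 17.6 to 23.0 CPM in the mutant libraries, in the direction of the labels. Between 2283 and 2455 X-linked genes had a count in each library. Of the 2777, 172 were at 0 in every library, 514 had counts but were too low to test, with means of at most 1.26 CPM, and 2091 (75.3%) were tested. Of the autosomal genes 12342 (71.3%) were tested. Exons of 510 tested X-linked genes overlap an exon of a gene transcribed from the other strand. Strand use in counting is not given in the sources at hand, so reads of such pairs may not have been separated.

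The median mRNA level of X-linked genes was lower than that of autosomal genes in all 6 libraries. Levels were compared per length, as FPKM (fragments scaled to coding length and library size), over genes with a mean of at least 1 FPKM. This floor left 1713 X-linked and 10409 autosomal genes. The median X-linked gene stood at 9.98, 6.34 and 7.23 FPKM in wild-type replicates 1, 2 and 3 and at 6.79, 7.0 and 7.9 FPKM in the mutant replicates. The median autosomal gene stood at 28.8, 20.6 and 20.9 FPKM in wild-type and at 24.1, 25 and 22.7 FPKM in the mutant. X had the lowest median of the 6 chromosomes in each library, below chromosome V at 11.3 to 16.3 FPKM, while chromosomes I and III were highest, at 27.1 to 41.7 and 27.9 to 40.2 FPKM.

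**Figure D1:**
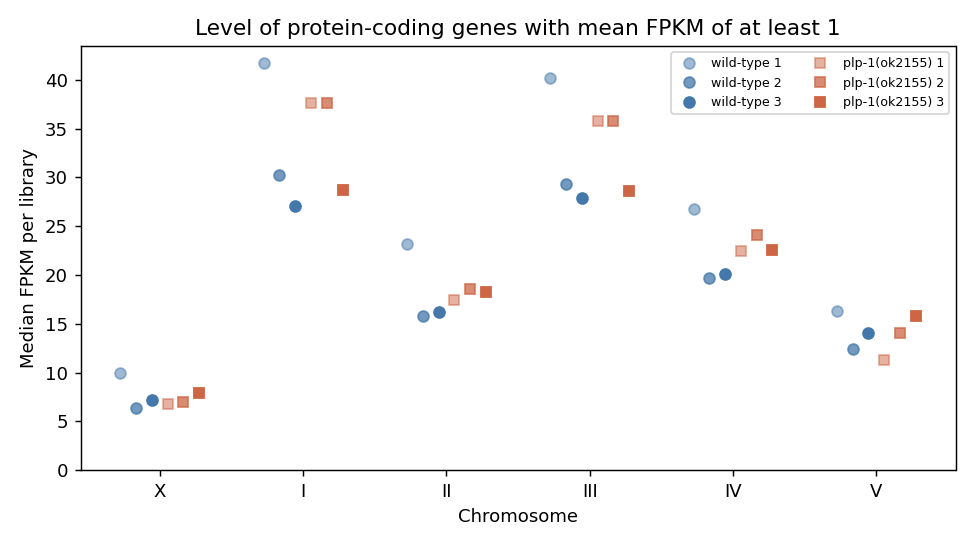
Median FPKM (vertical axis) of protein-coding genes with a mean of at least 1 FPKM, by chromosome (horizontal axis), with 1 point per library, circles for wild-type and squares for plp-1(ok2155). The 6 points of X lie between 6.34 and 9.98 FPKM, below the points of each autosome.

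The low median did not come with a larger share of silent genes than on the pooled autosomes. A mean of at least 1 FPKM was reached by 61.7% of X-linked and 60.1% of autosomal genes, and 17.5% and 21.1% lay under 0.1 FPKM. Single autosomes differed, and chromosome V stood apart, at 46.1% and 35.4% for these 2 shares. Chromosome I had 69.4% and 13.3%, and III 73.9% and 10.2%, so both had a smaller silent share than X. Chromosomes II (60.3% and 19.1%) and IV (61.7% and 17.5%) were close to X. The upper end differed: 123 X-linked genes (4.43%) reached a mean of 100 FPKM, against 1776 autosomal genes (10.3%). Over all genes with no floor, the median log2 FPKM of X was accordingly much closer to that of the autosomes, 0.19 log2 units lower in wild-type and 0.39 lower in the mutant (differences of -0.19 and -0.39).

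The 8 X-linked genes of the highest mean FPKM in wild-type encode yolk and intestinal products. The vitellogenins, yolk proteins that the adult intestine makes for oocytes, led with wild-type means of 4882 ± 2234 FPKM (SD, n = 3) for vit-2 and 4093 ± 2309 FPKM for vit-5. Next were the saposin-like antimicrobial gene spp-5 at 3524 ± 1127 FPKM and the lysozyme gene ilys-5 at 2277 ± 1794 FPKM. The genes vit-3 and vit-4 and the lysosomal protease genes cpr-6 and asp-3 lay between 1692 and 1904 FPKM. None of the 8 was called different in the mutant by edgeR's quasi-likelihood test, with adjusted p between 0.465 for asp-3 and 0.987 for ilys-5. The vitellogenins are similar in sequence, and how reads were split between them is not shown in the tables.

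The vitellogenins held a large part of the counts that fell on X. Of all protein-coding counts, X-linked genes took 9.35%, 12.9% and 17.9% in wild-type and 9.87%, 8.96% and 15.4% in the mutant. The 5 X-linked vitellogenins alone made up 35.3%, 51.4% and 60.2% of the X-linked counts in wild-type and 46.7%, 39% and 47.8% in the mutant. Without the vitellogenins the X share was 6.34%, 6.85% and 8.24% in wild-type and 5.61%, 5.75% and 8.89% in the mutant. The groups overlapped either way, and replicate 3 was the highest library of both groups. The difference of the group means, mutant minus wild-type, was -1.95 percentage points with all genes, 0.30 without wild-type replicate 3 and -0.39 without the vitellogenins.

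The ratio of X to autosomes did not separate the groups. The median log2 FPKM of X lay below that of the autosomes by differences of -1.53, -1.70 and -1.53 in wild-type replicates 1, 2 and 3. In the mutant replicates the differences were -1.83, -1.83 and -1.52. As ratios these are 0.347, 0.307 and 0.346 in wild-type and 0.282, 0.281 and 0.348 in plp-1(ok2155). Mutant replicates 1 and 2 were the lowest of the 6 libraries, and mutant replicate 3 was the highest. The group means were -1.59 ± 0.10 and -1.73 ± 0.18 (SD, n = 3), so the difference of -0.14 was smaller than the spread within the mutant group. It lay between -0.24 and -0.09 when each library was left out in turn.

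Germline markers were summed per library and set beside the X ratio. The 31 genes of the major sperm protein family, which drives the crawling of nematode sperm and has no member on X, summed to 15.9, 8.01 and 31.9 CPM in wild-type and to 183.8, 210.6 and 59.1 CPM in the mutant. The 2 mutant libraries with the lowest X ratio were those with the highest sums. Within wild-type the order differed, as replicate 2 had both the lowest X ratio and the lowest sum. Mutant replicate 3, nearest to wild-type in sum, had the highest ratio, and its sum still exceeded every wild-type one. The 37 oocyte and germline genes, also none on X, summed to 13391, 11474 and 11370 CPM in wild-type and to 21486, 14967 and 11341 CPM in the mutant, and mutant replicate 3 was again nearest to wild-type. A further 39 spermatogenesis genes, none on X, summed to 176.8, 182.2 and 166.7 CPM in wild-type and 267.1, 249.7 and 172.4 CPM in the mutant. The part of germline content in the X ratio was not tested.

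**Figure D2:**
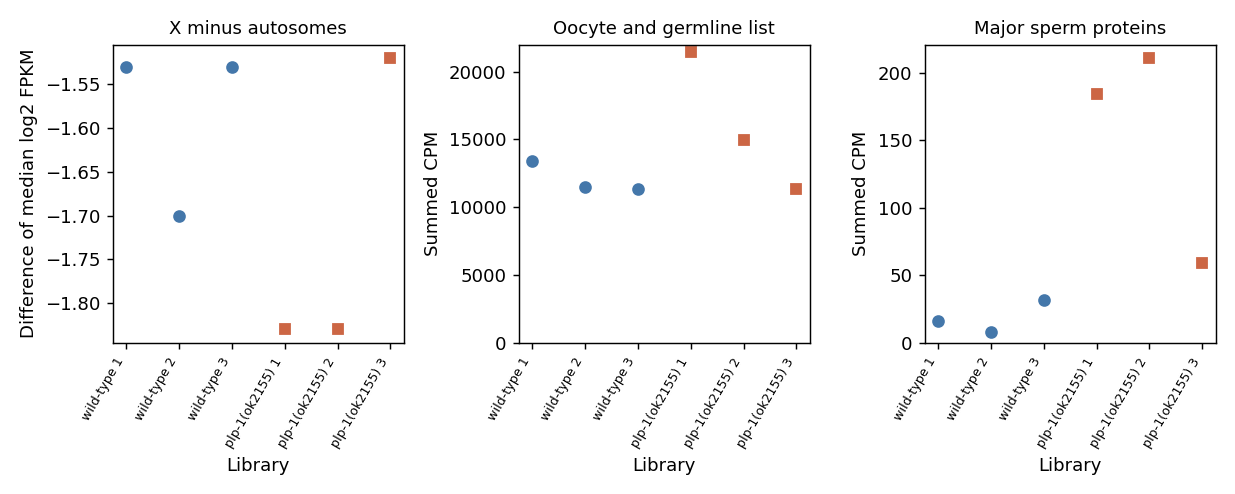
The difference of the median log2 FPKM of X-linked and autosomal genes (left), and the summed CPM of the 37 oocyte and germline genes (middle) and of the 31 major sperm protein genes (right), by library, with circles for wild-type and squares for plp-1(ok2155). Mutant replicates 1 and 2 have the lowest X values and the highest sperm protein sums, and mutant replicate 3 lies among or near the wild-type libraries in all plots.

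Few X-linked genes differed between the groups. At a Benjamini-Hochberg adjusted p under 0.05 over the 15090 tested genes of all kinds, edgeR called 1 X-linked gene higher and 1 lower in plp-1(ok2155). Among all tested genes 0.265% were called higher and 0.0795% lower, against 0.0478% of X-linked genes in each direction. Autosomal protein-coding genes held 38 of the higher and 10 of the lower calls. At an unadjusted p under 0.05, 56 X-linked genes were higher and 51 lower. These are 2.68% and 2.44% of the tested X-linked genes, against a background of 6.36% and 3.2% of all tested genes, and against 7.07% and 3.27% of autosomal protein-coding genes. Every mutant library lay above every wild-type library for 87 X-linked genes (4.16%) and below for 107 (5.12%), where the background was 8.75% and 5.49%.

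The sample titles give replicate numbers and name no pairing. The numbers were taken to pair the samples across groups from correlations in these same data. A fit with the replicate as a block made more calls. It called 5 X-linked genes higher and 8 lower, or 0.239% and 0.383% of those tested, against a background of 1.03% and 0.424%. DESeq2 called 16 higher and 12 lower (0.765% and 0.574%), against a background of 3.07% and 0.663%. In all of these fits the share of X-linked genes called higher was below the share among all tested genes. The shares of lower genes did not keep one order. At an unadjusted p under 0.05 with the block, 7.75% of X-linked and 6.26% of autosomal genes were lower, and without mutant replicate 3 the shares were 11.2% and 7.83%. Without wild-type replicate 2 they were 7.79% and 5.9%. Genes of a chromosome are not independent replicates, so no test of these shares was made.

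As a body, X-linked genes had slightly negative log2 fold changes. Of the 2091 tested, 817 (39.1%) had a positive and 1274 (60.9%) a negative log2 fold change of mutant over wild-type, with a median of -0.15. For autosomal protein-coding genes the positive share was 49.0% and the median -0.01, and the median of all tested genes was -0.03. The medians of the autosomes were 0.02 for I, 0.02 for II, -0.01 for III, -0.01 for IV and -0.08 for V, where 44.1% of genes were positive. The middle of the X-linked range, from the 25th to the 75th percentile, ran from -0.54 to 0.22, against -0.34 to 0.33 for the autosomes. The difference of the X-linked and autosomal medians was -0.14, and it was -0.32 without mutant replicate 3 and -0.06 at its smallest with another library left out. Within each library the median log2 CPM of tested X-linked genes minus that of autosomal genes was -1.12, -1.33 and -1.34 in wild-type and -1.30, -1.36 and -1.33 in the mutant. The groups overlapped, with wild-type replicates 2 and 3 inside the range of the mutant libraries and wild-type replicate 1 above all others.

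Large differences were counted as well. A log2 fold change above 1 was found for 97 X-linked genes (4.64%) and 1158 autosomal genes (9.38%). One below -1 was found for 203 X-linked genes (9.71%) and 912 autosomal genes (7.39%). On chromosome IV, which held 18 of the higher calls, 11% of tested genes were higher at an unadjusted p under 0.05, against 2.68% on X.

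**Figure D3:**
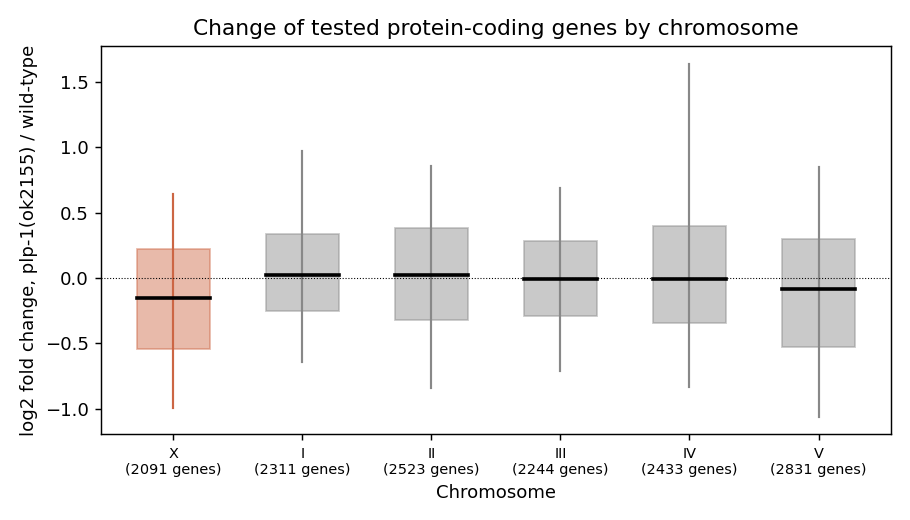
Log2 fold change of plp-1(ok2155) over wild-type (vertical axis) of the tested protein-coding genes of each chromosome. Black lines are medians, boxes run from the 25th to the 75th percentile and thin lines from the 10th to the 90th; X has the lowest median, -0.15, and chromosome IV the highest upper end.

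The low share of higher X-linked genes was seen in genes of low and middle level. When all tested protein-coding genes were split into 5 classes of equal size by mean FPKM over the 6 libraries, the 3 lower classes held 478, 593 and 626 X-linked genes and the upper ones 223 and 171. In the lowest class (0.031 to 1.34 FPKM) 3.35% of X-linked and 15.9% of autosomal genes were higher at an unadjusted p under 0.05. In the next class the shares were 3.2% and 10.2%, and in the middle one 1.92% and 7.03%. From 22.7 to 66.7 FPKM they were 2.69% and 2.48%, and in the top class, above 66.7 FPKM, 1.75% and 1.14%. The low share was not limited to higher genes. In the lowest class 1.46% of X-linked and 2.91% of autosomal genes were lower at the same threshold. These shares were 2.02% and 4.58% in the next class and 3.51% and 5.04% in the middle one. From 22.7 to 66.7 FPKM they were 2.24% and 2.67%, and in the top class 2.92% and 1.58%. The median log2 fold change of X-linked genes was negative in each class, between -0.18 and -0.06, while that of autosomal genes ran from -0.08 to 0.12.

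**Figure D4:**
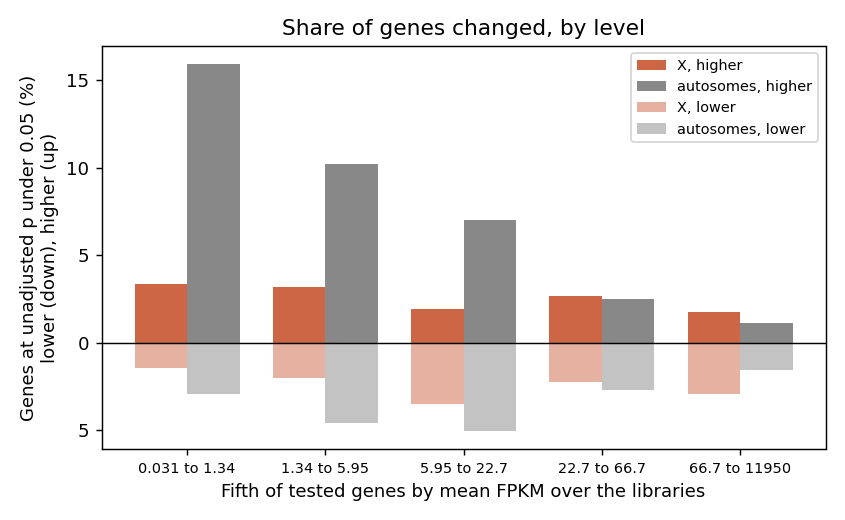
Percent of X-linked (coloured) and autosomal (grey) protein-coding genes at an unadjusted p under 0.05 in edgeR, higher upwards and lower downwards, by class of mean FPKM (horizontal axis, 5 classes of equal size). The higher bars of the autosomes go from 15.9% to 1.14% from the lowest to the highest class, and those of X stay between 1.75% and 3.35%. The lower bars of X are shorter than those of the autosomes in every class but the highest, where they are longer.

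The negative medians were spread along the chromosome. In 18 windows of 1 Mb, with 73 to 151 tested genes each, the median log2 fold change was negative in 17, from -0.31 between 2 and 3 Mb to 0.02 between 15 and 16 Mb. Of 84 windows on the autosomes 44 had a negative median, with a range from -0.23 to 0.18, and 17 of the 21 windows of chromosome V were negative.

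The X-linked gene called higher was H11L12.1 (gene ID 186723), a protein-coding gene with no described function that lies near the right end of X. Its coding span runs from 17710486 to 17711674 on the minus strand of WBcel235, with 5 annotated exons and no exonic overlap with a gene on the other strand. Its level was 1.08, 0.761 and 0.81 CPM in wild-type and 9.78, 6.67 and 5.76 CPM in the mutant. Each mutant library lay above all wild-type libraries, and the means were 0.885 ± 0.174 and 7.4 ± 2.11 CPM (SD, n = 3). The log2 fold change was 3.06 (SE 0.44, edgeR adjusted p = 0.0371). With any 1 library left out the adjusted p was 0.0744 to 0.248 and the log2 fold change 2.81 to 3.22. With upper-quartile normalization the adjusted p was 0.0574.

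Its neighbours were not called. Only 6973 bases and 2 further protein-coding genes, 6R55.2 and cTel55X.1, lie between H11L12.1 and the end of the last X-linked gene. The first was too low to test, and cTel55X.1 had a log2 fold change of -0.45 (edgeR adjusted p = 0.78). On the other side cgt-2, a ceramide glucosyltransferase gene, was at 0.05 (0.985), and T23E7.6 at -2.58 (0.647).

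The X-linked gene called lower was sul-3 (gene ID 183778), which encodes a protein of the sulfatase family, enzymes that remove sulfate groups. It spans 7827194 to 7834035 on the minus strand, with 14 exons. It stood at 0.774, 1.16 and 2.07 CPM in wild-type and had no count in any mutant library. Against a floor of 3 counts over the mutant group, which is 0.0219 CPM, its level was at least 54.7-fold lower (edgeR adjusted p = 0.0485). With any 1 library left out the adjusted p was 0.082 to 0.25, and it was 0.0523 to 0.0757 with the other normalizations of library size. The genes beside it, eef-1A.2 and C54D2.2, stood at -0.37 and -0.70 on the log2 scale, with edgeR adjusted p of 0.809 and 0.732, and both kept counts in all mutant libraries.

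The fit with the replicate block added 4 higher X-linked genes. The gene dhs-26, of the short-chain dehydrogenase family, stood at 0.124, 0.486 and 0.45 CPM in wild-type and 7.05, 8.52 and 2.4 CPM in the mutant. Its log2 fold change was 4.1 (SE 0.73, edgeR adjusted p = 0.086; 0.025 with the block), and 54 of its exonic bases overlap an exon of the other strand. T22B7.7 stood at 1.02, 5.66 and 2.52 CPM in wild-type and 18.6, 21.9 and 29.9 CPM in the mutant, at 2.94 (SE 0.62, adjusted p = 0.113; 0.00967 with the block). Neither gene overlapped between the groups. T10B10.3 stood at 17.9, 9.91 and 12.4 CPM in wild-type and 75.1, 39 and 30.9 CPM in the mutant (1.85, adjusted p = 0.127; 0.0103 with the block).

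The other 7 genes called lower with the block include lipid and transport genes. The gene acs-22, a fatty acyl-CoA synthetase of the fatty acid transport family, stood at 166, 116 and 221 CPM in wild-type and 53.7, 60.1 and 95 CPM in the mutant. The groups did not overlap, and the log2 fold change was -1.27 (SE 0.33, edgeR adjusted p = 0.185; 0.0273 with the block). B0416.2 stood at 2.38, 4.88 and 4.05 CPM in wild-type and 0.356, 0.417 and 1.03 CPM in the mutant (-2.65, adjusted p = 0.127; 0.0404 with the block). F41E7.1 was at -2.05 (adjusted p = 0.343; 0.0408 with the block). For the last 4, C41G11.1, K09C4.1, F47E1.4 (an organic anion transporter gene) and pgp-6, the groups overlapped, and their adjusted p with the block was 0.00837 to 0.0331. T10B10.3, B0416.2 and these 4 were named after their values were seen. Exons of the other strand overlap 13 bases of T10B10.3, 44 of acs-22, 24 of F41E7.1 and 25 of C41G11.1.

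**Figure D5:**
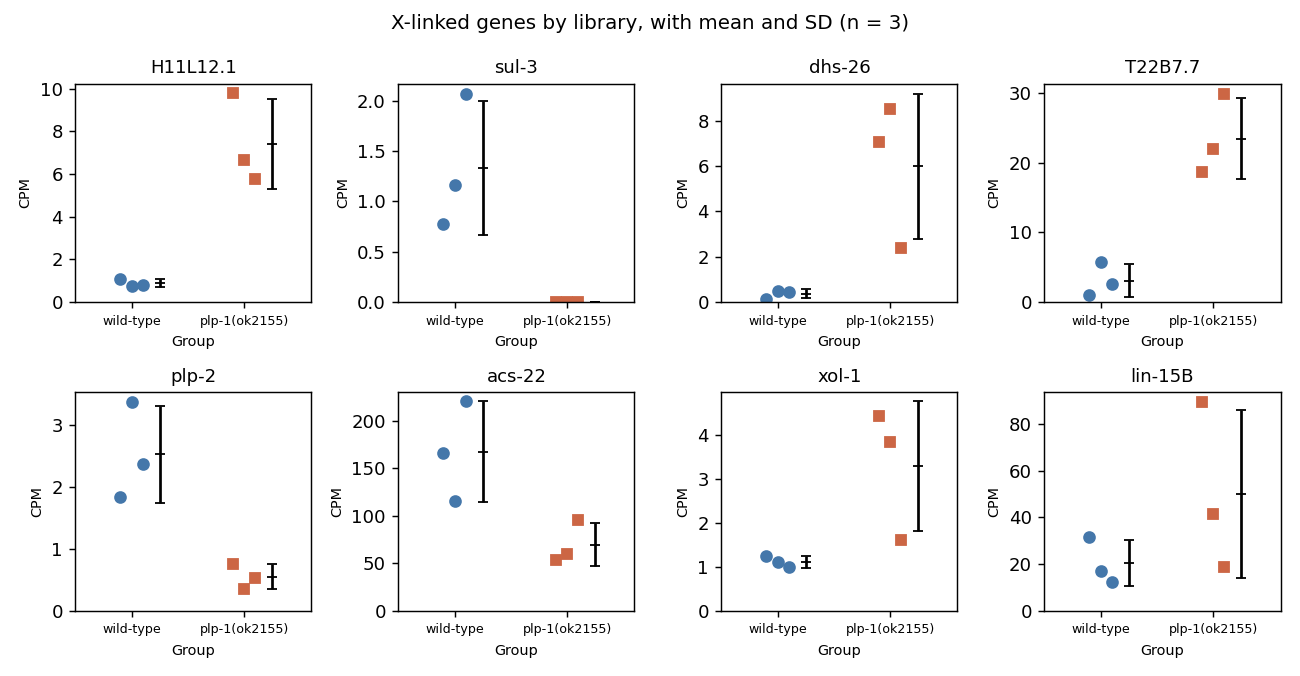
CPM by library (vertical axes, linear and each with its own scale from 0) of 8 X-linked genes in wild-type (circles) and plp-1(ok2155) (squares), with bars for mean ± SD (n = 3). Mutant and wild-type libraries do not overlap for H11L12.1, sul-3, dhs-26, T22B7.7, plp-2, acs-22 and xol-1, and overlap for lin-15B.

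The gene pgp-6 belongs to a tandem cluster of P-glycoprotein genes, ATP-driven exporters of foreign compounds, between 10854381 and 10877425. Its counts were 381, 486 and 6446 in wild-type and 79, 130 and 554 in the mutant. Those of pgp-5 were 1835, 1022 and 13657 in wild-type and 484, 628 and 1436 in the mutant. Replicate 3 was the highest library of its group for both. The log2 fold changes were -3.57 for pgp-6 (edgeR adjusted p = 0.457; 0.0189 with the block) and -2.99 for pgp-5 (0.431; 0.0838 with the block). Without wild-type replicate 3 they were -0.43 and -0.40, with an adjusted p of 0.989 for both. Their neighbour pgp-8 went the other way in value, at 0.87 (0.709). Reads of these similar copies may have been split between them.

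Further X-linked genes without overlap between the groups in CPM had large log2 fold changes that missed the threshold in edgeR with and without the block. The moulting protease gene nas-37, which helps shed the old cuticle, stood at 78.2, 31.7 and 82.6 CPM in wild-type and 17.6, 27.2 and 20.3 CPM in the mutant (-1.56, adjusted p = 0.174; 0.0152 in DESeq2). The cytochrome P450 gene cyp-13B1 was at -2.32 (0.212), K05B2.4 at -2.76 (0.187), C26B9.6 at -1.60 (0.255), rig-3, a neuronal immunoglobulin-domain gene, at -1.26 (0.367), and F13C5.1 at -1.39 (0.444). DESeq2 also called cyp-13B1 (0.00887), K05B2.4 (0.00247) and C26B9.6 (0.0262). K05B2.4 was at -1.71 without wild-type replicate 3, and without wild-type replicate 1 cyp-13B1 was at -1.65 and F13C5.1 at -0.77. The gap was narrow for cyp-13B1, at 9.09 CPM in wild-type replicate 2 and 9.05 CPM in mutant replicate 2. For F13C5.1 the same libraries stood at 3.17 and 2.94 CPM. In FPKM the groups overlapped for both genes. On the higher side C45B2.2 stood at 1.11, 2.96 and 0.81 CPM in wild-type and 5.18, 7.8 and 76.9 CPM in the mutant (4.2, adjusted p = 0.193). The ion channel gene lgc-21 was at 2.56 (0.289; 0.0251 in DESeq2). Mutant replicate 3 was the highest library of both, and without it the log2 fold changes were 1.93 for C45B2.2 and 1.15 for lgc-21.

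The paralog of plp-1 lies on X. It is plp-2 (gene ID 184719, 14982140 to 14982804, minus strand), and it was named after its values were seen. Its level was 1.84, 3.38 and 2.37 CPM in wild-type and 0.756, 0.357 and 0.528 CPM in the mutant, where its counts were 34, 18 and 22. Every mutant library was lower than every wild-type library. The log2 fold change was -2.21 (SE 0.51), with an edgeR adjusted p of 0.136, 0.0996 with the block, and 0.00184 in DESeq2. The neighbours emre-1 and rbg-1 were at 0.01 and -0.34. Sequence shared between plp-1 and plp-2 was not measured here, so reads assigned to plp-2 may include reads of plp-1, whose own transcript was lower in the mutant.

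Genes by which the embryo counts its X chromosomes lie mostly on X and had positive log2 fold changes. The X signal elements sex-1, fox-1 and ceh-39 repress xol-1, the switch that is on in males, and xol-1 in turn blocks sdc-2, which directs the dosage compensation complex to X. All 6 X-linked members were positive, with a median of 0.68 and a range from 0.43 to 1.56, against -0.15 for tested X-linked genes, and none was called by edgeR. Without mutant replicate 1 the median was 0.21, with 5 of 6 positive. The gene xol-1 stood at 1.25, 1.1 and 0.989 CPM in wild-type and 4.42, 3.85 and 1.61 CPM in the mutant, and its groups did not overlap. The log2 fold change of xol-1 was 1.56 (SE 0.50, edgeR adjusted p = 0.32; 0.192 with the block).

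The repressors of xol-1 and the genes below it overlapped between the groups. The homeobox gene ceh-39 stood at 10.8, 3.89 and 3.51 CPM in wild-type and 22.6, 13.1 and 4.51 CPM in the mutant (1.15, edgeR adjusted p = 0.647). The nuclear receptor gene sex-1 was at 0.67 (0.736), the RNA-binding protein gene fox-1 at 0.59 (0.766) and sdc-1 at 0.69 (0.697). The gene sdc-2 stood at 17.4, 11.5 and 6.03 CPM in wild-type and 24.3, 14.5 and 8.5 CPM in the mutant. Its log2 fold change was 0.43 (0.833), turning to -0.02 without mutant replicate 1, and 1181 of its exonic bases overlap exons of the other strand. In both groups ceh-39, sex-1 and sdc-2 were highest in replicate 1 and lowest in replicate 3. The 2 autosomal members of the list, sea-1 and sea-2, which count the autosomes, were at 0.91 to 1.02. The male-promoting gene her-1 on chromosome V, which the SDC proteins repress, stood at 1.23 (0.555).

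The machinery that acts on X showed no called gene. Of 10 tested autosomal genes of dosage compensation 7 were positive, with a median of 0.19, and none was called. This lean rested on single libraries. Without mutant replicate 1 the median was -0.06, with 2 of 10 positive, and without wild-type replicate 3 it was -0.04, with 4 of 10 positive. The 5 genes for germline silencing of X, all autosomal, had a median of 0.38 and 4 positive members. Without mutant replicate 1 these were 0.11 and 3. Among 12 synMuv B and DREAM genes, repressors of germline genes in body cells, lin-15B is the X-linked one. It stood at 31.4, 17.1 and 12.4 CPM in wild-type and 89.6, 41.6 and 18.9 CPM in the mutant. Replicate 1 was highest and replicate 3 lowest in both groups, which overlapped, and the log2 fold change was 1.3 (SE 0.58, edgeR adjusted p = 0.53; 0.0702 with the block). It was 0.58 without mutant replicate 1. Its neighbour lin-15A was at 1.10 (0.555), and the 11 autosomal members had a median of 0.05.

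Muscle genes on X were mostly positive, without a call. Of 18 tested, 12 were positive, with a median log2 fold change of 0.29, against 27 of 31 and 0.33 on the autosomes. Without mutant replicate 3 the X-linked median was 0.05. The gene dim-1, needed for the order of body wall muscle, stood at 59.2, 101 and 113 CPM in wild-type and 158, 150 and 189 CPM in the mutant, and the troponin I gene unc-27 at 155, 289 and 369 against 405, 417 and 564 CPM. Neither overlapped between the groups, and edgeR gave 0.86 (adjusted p = 0.346) for dim-1 and 0.77 (0.553) for unc-27 on the log2 scale. The myosin light chain gene mlc-1 was at 0.61 (0.635) and the actin gene act-4 at 0.37 (0.838), which turned to -0.06 without mutant replicate 3.

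Collagens of the cuticle had a smaller median on X than on the autosomes. Of 28 X-linked col genes 20 were tested, with 13 positive and a median log2 fold change of 0.30. On the autosomes 83 of 100 were positive, with a median of 1.41. No col gene was called by edgeR, and at an unadjusted p under 0.05 there were 5 higher and 1 lower on X and 40 higher and 1 lower on the autosomes, where 6.36% of all tested genes were higher and 3.2% lower. With the block, which called 1.03% of all tested genes higher, 1 X-linked and 21 autosomal col genes were called higher, and with DESeq2 (3.07%) 3 and 19. Without mutant replicate 3 the medians were -0.09 on X and 0.35 on the autosomes. The X-linked one was col-175, at 0.341, 0.782 and 2.88 CPM in wild-type and 5.36, 8.91 and 30.1 CPM in the mutant (3.49, SE 0.95, adjusted p = 0.209; 0.00213 with the block). In both groups replicate 3 was the highest and replicate 1 the lowest library. The neighbouring genes col-167 and col-168 were at 2.68 (0.273) and 2.46 (0.328), and at 1.02 and 1.00 without mutant replicate 3. The adult collagen gene col-19 was at -0.26 (0.893).

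Genes of body shape encode or modify cuticle collagens, and 4 of those listed lie on X. The median log2 fold change was 0.09 over the X-linked members and 3.28 over the 19 autosomal ones. Without wild-type replicate 1 the X-linked median was 0.79, with all 4 positive, and the autosomal one 2.82. edgeR called no X-linked member with or without the block, and DESeq2 called dpy-8 (adjusted p = 0.00846). The gene dpy-8 was the highest on X, at 0.0929, 0.38 and 0.3 CPM in wild-type and 1.04, 1.67 and 1.85 CPM in the mutant (2.57, edgeR adjusted p = 0.168). Of its exonic bases 109 overlap an exon of the other strand. The genes dpy-3 and dpy-7 were at -1.51 (0.683) and -1.29 (0.692), and both turned positive without wild-type replicate 1, to 0.69 and 0.11.

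Yolk genes and most intestinal genes on X had negative values. All 5 vitellogenins were negative, with a median log2 fold change of -0.72, which was -0.08 without wild-type replicate 3. Summed, they stood at 26553, 68482 and 124150 CPM in wild-type and 47092, 31855 and 72563 CPM in the mutant, so that the groups overlapped widely. The value of vit-2 was -0.41 (edgeR adjusted p = 0.84) and that of vit-5 -0.43 (0.855), and without wild-type replicate 3 they turned to 0.18 and 0.28. Of 6 X-linked intestinal genes 4 were negative, with a median of -0.39, close in value to the -0.40 of 21 autosomal ones. Without wild-type replicate 3 the median was -0.16 on X, with 3 of 6 positive, and -0.11 on the autosomes. The protease gene asp-3 stood at 2284, 1289 and 2795 CPM in wild-type and 777, 834 and 1508 CPM in the mutant (-1.03, adjusted p = 0.465). The gene for the main intestinal transcription factor, elt-2, was at -0.67 (0.722).

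Neuronal genes on X were scattered around slightly negative values. Of 20 tested members 12 were negative, with a median of -0.12, against -0.32 for 27 autosomal members, and none was called by edgeR with or without the block or by DESeq2. The X-linked median was 0.01 without wild-type replicate 1. The neuropeptide genes of the flp and nlp families had a median of -0.30 on X, with 22 of 28 negative, and -0.35 on the autosomes. The receptor and ion channel genes of the lgc and acr families had medians of -0.07 over 18 X-linked and 0.04 over 41 autosomal genes, and leaving out replicate 1 of wild-type turned the first to 0.04, and leaving out replicate 1 of the mutant to 0.06. Their member acr-9, an acetylcholine receptor subunit, stood at 0.279, 0.0634 and 0.09 CPM in wild-type and 1.71, 1.51 and 0.696 CPM in the mutant (3.11, edgeR adjusted p = 0.139; 0.00535 in DESeq2). The 6 tested X-linked genes of cilia had a median of -1.11, with 5 negative, and the 19 autosomal ones -0.80. Wild-type replicate 1 stood apart here: the mean level of the X-linked ones was 1.96 log2 CPM in it and -0.04 and 0.25 in the others of its group, while the mutant libraries had 0.44, 0.23 and -0.13. Without that library the X-linked median was 0.12, with 5 of 6 positive, and the autosomal one 0.32. No X-linked cilia gene was called, while edgeR called the autosomal dyf-3 higher, at 3.77 (adjusted p = 0.0313).

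Developmental regulators on X, transcription factors and signalling genes, were negative in 20 of 27, with a median of -0.30 and no call. The timing gene lin-14 was at -0.56 (edgeR adjusted p = 0.763). The endomesoderm gene med-1 held 4, 2 and 0 counts in the mutant libraries and none in wild-type and was not tested. The 9 tested basement membrane genes had a median of -0.01, with the type IV collagen gene let-2 at 310, 143 and 308 CPM in wild-type and 306, 183 and 267 CPM in the mutant. Nuclear receptor genes had a median of -0.17 over 17 X-linked and -0.48 over 171 autosomal genes, and homeobox genes -0.06 and -0.13. The X-linked medians turned to 0.01 without wild-type replicate 1 for the receptors and to 0.07 without wild-type replicate 2 for the homeobox genes.

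Some large families are thin on X. Only 36 X-linked chemoreceptor genes were counted against 1299 on the autosomes, and 4 of them were tested. The F-box and MATH families had 21 X-linked members against 408 on the autosomes. C-type lectins had 3 X-linked members against 237, and ribosomal proteins 2 against 76. The X-linked medians were -0.72, -0.26, -0.91 and -0.23 for the 4 classes, with no X-linked call by edgeR with or without the block or by DESeq2. They rested on only 4, 9, 3 and 2 tested genes. Without wild-type replicate 3 the ribosomal median turned to 0.12. With all genes that had a count the chemoreceptor median was -0.32, with 8 of 22 positive. Detoxification genes (14 on X, median -0.18), potassium channels of the twk family (6 tested, -0.25) and patched and hedgehog-related genes (11 tested, 0.18) had no X-linked call by edgeR with or without the block, and DESeq2 called cyp-13B1 of the first. The median of the detoxification genes turned to 0.02 with the block, and that of the patched and hedgehog-related genes to -0.14 without wild-type replicate 2.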

How the data were processed

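Per the submitters' processing notes, the authors used HISAT2 2.1.0, Bowtie2 2.3.4.1, Trimmomatic 0.38, FastQC 0.11.7, DESeq2 and StringTie 1.3.4d, with no role or order given. The deposited tables give estimated counts and FPKM per gene and transcript on WBcel235. The deposited counts are rounded up: 100% of low transcript counts lay 0 to 1 above FPKM times length (tolerance 0.05). 99.3% of X-linked transcript lengths were multiples of 3, so FPKM refers to coding length. 24 entries without a symbol were left out. FPKM medians used a pseudocount of 0.01.

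edgeR 4.0.16 (R 4.3.3, limma 3.58.1) tested the counts with filterByExpr, TMM and the quasi-likelihood test over all 15090 genes kept, and DESeq2 1.42.0 was an alternative. Strand, exons and exonic overlaps came from the Ensembl annotation of WBcel235. Floors cover counting error only. The script was tested on simulated data.

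The genes and lists were chosen with earlier results of these data known. Genes were named if called, among the 8 largest rises or falls at unadjusted p under 0.05 (at least 5 CPM, no overlap), among the 8 highest wild-type FPKM, among the 3 smallest p of a list, or fixed by name. Deviations from the group means correlated at 0.285, 0.205 and 0.358 for same-numbered libraries, all over 0.1, so the numbers were taken to pair the samples. A planned search of promoters for a motif was not run, as no promoter sequences were used here.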

Additional observations from a re-analysis of the deposited data

How the results depend on the processing

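Few calls on X survived other settings. The call of a higher gene was lost (0) with upper-quartile normalization, and that of a lower gene (0) also with DESeq2 size factors and with TMM from autosomal genes; leaving out any 1 library gave 0 in both directions. The replicate block gave 5 higher and 8 lower, and DESeq2 16 and 12. Counts at an unadjusted p under 0.05 came to 108 higher and 162 lower with the block, 92 lower with DESeq2 and 83 lower with all genes that had a count; leaving out 1 library gave 41 to 85 higher (the most without wild-type replicate 1) and 16 to 240 lower, with 33, 168, 18, 16 and 240 without wild-type replicates 3 and 2 and mutant replicates 1, 2 and 3. The X minus autosome median log2 fold change was -0.32 to -0.06 with 1 library left out, and -0.13 without the marker genes. The X to autosome difference in wild-type was -0.19 with no floor, -1.44 with a floor of 5 FPKM and -1.47 with a pseudocount of 1, and -0.39 in the mutant with no floor. The difference in X share was -3.96 to 0.30 points with 1 library left out. Of 1005 values of 84 named X-linked genes under the alternatives, 949 kept direction and side of the threshold, and 22 (18 genes) changed sign. Nearly all of these genes were uncalled in the main fit, and many were named for large changes. The 949 therefore says little about robustness. With the block let-2 turned to 0.04. With 1 library left out these ran through 0: let-2 -0.35 to 0.18, act-4 -0.06 to 0.84, vit-2 -0.75 to 0.18, vit-5 -0.91 to 0.28, ilys-5 -0.47 to 0.76, cpr-6 -1.01 to 0.01, sdc-2 -0.02 to 0.84, osm-5 -2.3 to 0.11, ift-81 -1.84 to 0.52, dpy-7 -1.88 to 0.11, dpy-3 -2.12 to 0.69, wrt-2 -2.92 to 0.09, rpl-25.1 -0.57 to 0.16, col-19 -0.65 to 0.07, clec-266 -0.79 to 0.46, str-124 -2.61 to 0.22, odr-10 -1.36 to 0.02 and rpl-11.2 -0.55 to 0.07. The causes were not tested. Levels near 1 CPM, as for sul-3, rest on few reads.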

Other observations

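Of the X-linked genes 86 had counts only in wild-type and 76 only in the mutant. The genes named here were chosen after their values were seen, for counts in 1 group or for counts mostly in 1 library. The collagen genes col-41 and col-44 had no wild-type count and held 5, 22 and 37, and 6, 0 and 53 counts in the mutant libraries, too few to be tested. AC8.3, AC8.7 and AC8.10 near the left end of X held 45, 50 and 48 counts in mutant replicate 2 and none in the other 5 libraries. F35B3.4 held 28, 10 and 24 counts in wild-type and 66, 12 and 2067 in the mutant. The gene pgp-7 held 72, 0 and 1789 counts in wild-type and 10, 0 and 0 in the mutant. C45B2.3, next to C45B2.2, held 0.0845 CPM in wild-type replicate 2 and none in the other wild-type libraries, against 0.333, 0.298 and 11 CPM in the mutant.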
